A study of Mus musculus with 8 samples.

Results

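The heat shock and DnaJ genes of the cytosol were examined in C2C12 myotubes that were either fed or left without fresh medium. The members were the probe sets (groups of short array probes that report 1 transcript region) annotated with exactly 1 gene symbol, where that symbol began with Hsp or Dnaj and a family letter or number, or was Cryab, Hsf1, Hsf2, Bag3, Stip1 or Ahsa1. A list of 12 names of organelle chaperones and similar-sounding genes, such as Hspa5, Hspa9, Hspd1 and Hspe1, was left out. The rule found 105 probe sets of 56 genes among 22626 probe sets of 12393 genes. Of these members, 83 probe sets of 47 genes were bright enough to be tested. The rule works on names. Several DnaJ members, such as Dnajc1 and Dnajb12 of the endoplasmic reticulum and Dnajc11, Dnajc15 and Dnajc30 of mitochondria, are known to sit outside the cytosol and stayed in. Hsf1 and Hsp90ab1 were not analysed here, since no probe set carried either symbol alone.

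C2C12 is an established mouse myoblast line whose cells fuse into myotubes when serum is lowered. Total RNA came from myotubes after 8 days in medium with 2% horse serum. The 4 control samples, arrays A to D, received fresh medium every 48 hours throughout. The 4 starved samples, arrays E to H, were fed as the controls until day 4 and then kept in the same medium for 4 more days. Whether each sample was a culture of its own is not stated in the labels, and the p-values therefore reflect the spread among these arrays, which could be technical. In these bulk samples, fewer cells of a type and less RNA per cell cannot be told apart.

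Cytosolic HSP70 proteins bind unfolded stretches of client proteins in a cycle driven by ATP. DnaJ proteins deliver the client and trigger ATP hydrolysis, nucleotide exchange factors such as the HSP110 protein Hsph1 reset the cycle, and Stip1 passes clients on to HSP90, whose ATPase Ahsa1 stimulates. Small heat shock proteins hold aggregation-prone proteins, and in muscle several of them, Cryab, Hspb1 and Hspb8 among them, associate with the sarcomere. When misfolded protein accumulates, heat shock factors bind inverted repeats of the unit GAA in the promoters of many of these genes.

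Levels are given as log2 of the array intensity plus an offset of 10.9, after the 8 arrays were brought to a common distribution. A fold change is the starved minus the control mean on that scale, ± its standard error. Adjusted p-values come from limma with Benjamini-Hochberg adjustment over all 13575 probe sets tested, and a gene was called when its adjusted p was below 0.05. The brightest of a gene's tested probe sets stood for it.

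Of the 47 member genes tested, Hsph1, Ahsa1 and Hspb8 rose in starved myotubes, none fell and 44 were not called. That is 6.38% of the members, where 11.2% of the 8352 genes tested were called in either direction, 4.25% higher and 6.94% lower. The share of members called in either direction was thus no larger than that of all genes. In the higher direction alone, the members' 6.38% rests on 3 genes and stands beside 4.25%. At an unadjusted p below 0.05 in limma there were 14 members, or 29.8%, and 24.3% of all genes. The members' fold changes ran from -0.34 for Dnajc12 to 0.66 for Hspa1a, with a median of 0.10 against 0.01 for all genes. Values above 0 were found for 34 of the 47 members, or 72.3%, and for 52.3% of all genes. Over the single probe sets, 5 of the 83 tested were called, all higher, or 6.02%, against 10.6% of all probe sets. A member's groups did not overlap with starved above control for 7 of 47 genes (all genes: 8.23%) and with starved below control for 3 of 47 (all genes: 10.2%).

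**Figure D1:**
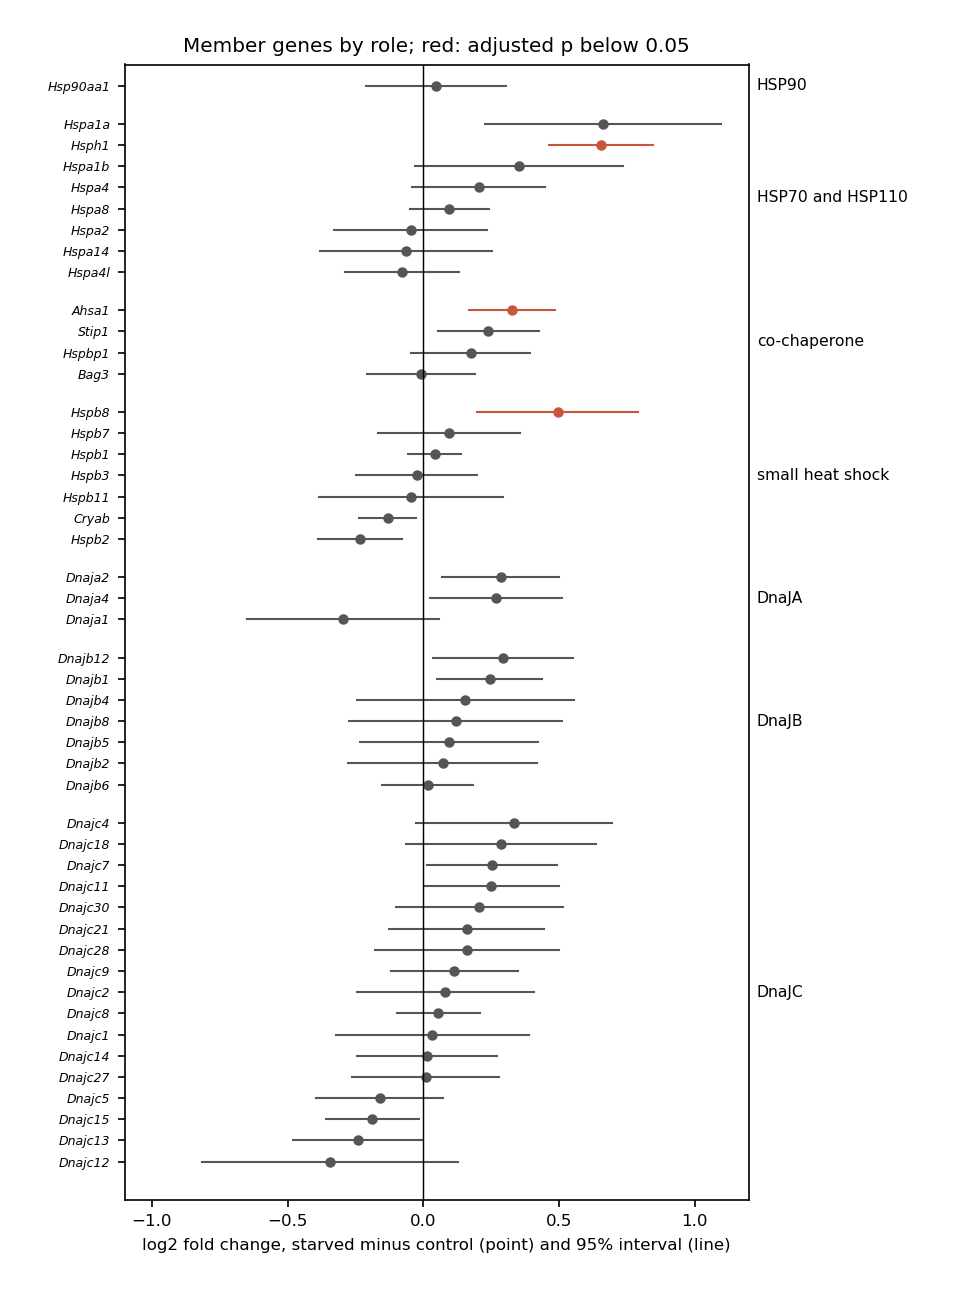
Log2 fold change, starved minus control (x axis, point), with its 95% interval (line) for the 47 tested member genes, grouped by role, with 4 arrays per group. Red marks Hsph1, Ahsa1 and Hspb8, the 3 genes with an adjusted p below 0.05; the other 44 are grey.

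The promoters of the called genes and of Hspa1a are printed because heat shock factors act through the GAA unit. The bases are the 250 before the annotated start (RefSeq, GRCm38.p6), with the fixed letters of a matched motif in capitals. Hsph1 lies on the minus strand (chr5:149636337-149636586), Ahsa1 on the plus strand (chr12:87266478-87266727), Hspb8 on the minus strand (chr5:116422865-116423114) and Hspa1a on the minus strand (chr17:34972157-34972406).
Hsph1: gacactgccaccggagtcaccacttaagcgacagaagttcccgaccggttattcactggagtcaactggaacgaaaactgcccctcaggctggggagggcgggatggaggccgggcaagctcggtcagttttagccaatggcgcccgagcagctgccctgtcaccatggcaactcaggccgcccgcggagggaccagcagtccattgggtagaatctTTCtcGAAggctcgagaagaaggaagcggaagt
Ahsa1: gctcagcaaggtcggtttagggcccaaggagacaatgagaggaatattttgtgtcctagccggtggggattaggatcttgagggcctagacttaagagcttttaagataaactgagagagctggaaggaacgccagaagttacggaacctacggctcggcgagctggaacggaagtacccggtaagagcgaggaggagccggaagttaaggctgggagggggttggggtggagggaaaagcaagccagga
Hspb8: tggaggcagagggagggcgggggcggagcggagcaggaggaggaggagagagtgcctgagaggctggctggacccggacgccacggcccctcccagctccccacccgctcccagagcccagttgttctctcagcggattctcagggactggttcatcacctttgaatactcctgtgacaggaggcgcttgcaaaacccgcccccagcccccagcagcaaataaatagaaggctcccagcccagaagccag
Hspa1a: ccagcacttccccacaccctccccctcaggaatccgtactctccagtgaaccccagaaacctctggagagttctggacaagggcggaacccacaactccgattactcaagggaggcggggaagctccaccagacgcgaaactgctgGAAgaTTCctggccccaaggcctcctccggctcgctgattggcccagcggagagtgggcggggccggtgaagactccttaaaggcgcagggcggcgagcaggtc
The last site of Hsph1 and the site of Hspb8 lie at and after the start, at chr5:149636287-149636315 and chr5:116422844-116422872, and are shown as 29 bases each.
Hsph1 site: gtaaaatgctgcagaTTCtgGAAagTTCt
Hspb8 site: gaagccaggaGAAgtTTCtaggctcgcga

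The motif GAANNTTC (a pair of inverted units, N being any base) was found in the start windows of 11 of the 45 member genes that had one, or 24.4%, and of 9.04% of all 27025 genes. A window ran from 250 bases before to 50 bases after an annotated start, and both strands were read. The 11 genes were Bag3, Dnaja1, Dnaja4, Dnajb6, Dnajc27, Hspa1a, Hspa1b, Hspb1, Hspb3, Hspb8 and Hsph1. Another 11 member genes, Hsp90aa1, Hspa8, Cryab and Hspb2 among them, had no window and were not read. The 3-unit form, in which GAANNTTC is followed after 2 bases of any kind by another GAA (read on both strands, and overlapping the shorter motifs), occurred in Hsph1 and Dnajb6, 2 of 45 member genes (4.44%) against 0.662% of all genes. In Hsph1 it lay from base 37 to base 49 after the start printed here. The outward pair TTCNNGAA was present in 6.67% of member genes and 9.60% of all genes. TGATGNAA, a motif of the amino acid response factor ATF4, was found in 1 member, Hspa14, and in 4.51% of all genes. None of these letters occurred in the Ahsa1 window. A match is a description of letters, not a bound site. Holding a match did not go with a call throughout: Dnajb6, with the 3-unit form, had a fold change of 0.02 ± 0.08 (adjusted p = 0.925), and Bag3, Hspb1 and Dnaja1 were not called either.

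Hsph1, the HSP110 nucleotide exchange factor of HSP70, had the lowest adjusted p of the members. Its log2 level was 10.09, 10.10, 9.97 and 10.22 in control arrays A to D and 10.61, 10.83, 10.85 and 10.70 in starved arrays E to H. Every starved array was above every control array. A separate probe set of the gene read 9.14, 8.93, 9.11 and 9.25 in the controls and 9.64, 9.72, 9.70 and 9.97 in the starved samples, again with no overlap. The fold change was 0.65 ± 0.09 on the first (95% interval 0.46 to 0.85, adjusted p = 0.000606) and 0.65 ± 0.11 on the second (adjusted p = 0.00256), a level 1.57-fold that of controls on the first. In the intensities as deposited, before any scaling between arrays, the first probe set gave 1465, 1049, 1024 and 1525 in the controls and 1133, 1491, 1678 and 1789 in the starved arrays, which overlap. Without scaling between arrays the fold change was 0.27 (adjusted p = 0.369), and this was the sole alternative of 19 in which Hsph1 was not called.

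The remaining HSP70 and HSP110 genes were not called, although the stress-inducible pair Hspa1a and Hspa1b had some of the larger values among the members. Hspa1a had log2 levels of 6.16, 6.73, 6.33 and 6.26 in the controls and 6.81, 7.12, 6.91 and 7.28 in the starved arrays, with no overlap. Its fold change was 0.66 ± 0.20 (95% interval 0.23 to 1.10), with an adjusted p of 0.0576. The probe set is dim. Its mean over all arrays, 6.70, passed the brightness threshold of 6.61 only through the starved group, since the control mean was 6.37. Leaving out control B, whose level was the highest of the controls, gave 0.79 and an adjusted p of 0.0305.

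Hspa1b, whose sequence is nearly identical to that of Hspa1a and whose gene lies beside it on chromosome 17 (34956429 to 34959238, GRCm38.p6), was read by 3 tested probe sets. Which of the 2 genes such probes read is uncertain. The brightest read 8.91, 8.59, 8.61 and 8.83 in the controls and 8.66, 9.10, 9.02 and 9.58 in the starved arrays, which overlapped (0.35 ± 0.17, adjusted p = 0.253). A probe set whose suffix _x_at marks possible cross-hybridization gave 8.21, 8.68, 8.24 and 8.46 against 9.08, 8.78, 8.81 and 8.69. Those groups did not overlap, though control B and starved H nearly met, and the fold change was 0.44 ± 0.14 (adjusted p = 0.0663). The remaining probe set gave 0.16 ± 0.20 (adjusted p = 0.693). All 3 were above 0 and none was called.

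Hspa8, the constitutive HSP70, was at 12.80, 12.68, 12.82 and 12.79 in the controls and 12.76, 13.03, 12.80 and 12.89 in the starved arrays. These groups overlapped, with a fold change of 0.10 ± 0.07 and a 95% interval of -0.05 to 0.24 (adjusted p = 0.424). This probe set also carries the suffix _x_at. Its value was 0.22 with centring on the median, 0.26 with centring on the 75th percentile and -0.10 without scaling, with no call. Other tested probe sets of Hspa8 gave 0.16 (also _x_at) and 0.01. Hspa4, an HSP110 relative of Hsph1, differed by probe set. Its brightest read 9.57, 9.80, 9.72 and 9.97 in the controls and 9.82, 9.87, 10.10 and 10.10 in the starved arrays, with overlap (0.20 ± 0.11, adjusted p = 0.301). A dimmer one read 8.20, 8.34, 8.04 and 7.88 against 8.57, 8.77, 8.68 and 8.44. There the starved arrays were all above the controls, and the probe set rose by 0.50 ± 0.13 (adjusted p = 0.0325). The mean of the gene's 3 tested probe sets was called as well (0.33, adjusted p = 0.0241). Hspa4l, Hspa2 and Hspa14 lay between -0.08 and -0.05 and were not called.

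Hsp90aa1, the inducible cytosolic HSP90, was the single member of its family that could be tested. Its log2 level was 11.24, 11.45, 11.03 and 11.14 in the controls and 11.20, 11.43, 10.99 and 11.42 in the starved arrays. The groups overlapped, and the fold change was 0.05 ± 0.12 with a 95% interval of -0.21 to 0.31 (adjusted p = 0.851). The other probe sets gave -0.18 and 0.08 (adjusted p = 0.457 and 0.749).

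**Figure D2:**
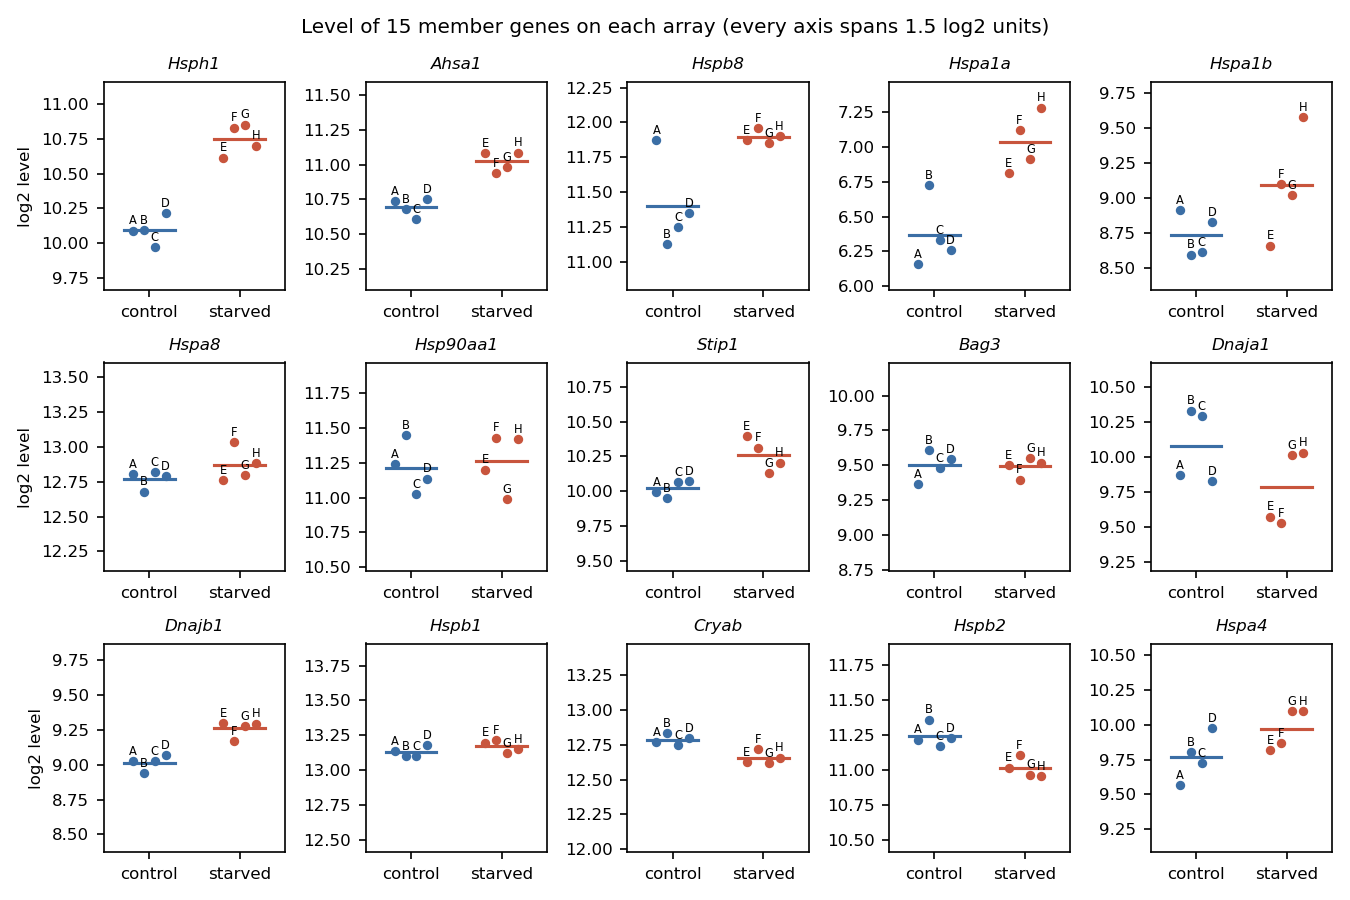
Log2 level (y axis, each spanning 1.5 units) of 15 member genes on control arrays A to D (blue) and starved arrays E to H (red), with the group mean as a line. Hsph1 and Ahsa1 separate fully and Hspb8 does except for control A, while Hspa8 and Hsp90aa1 overlap.

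Among the co-chaperones, Ahsa1, the activator of the HSP90 ATPase, rose, while Hsp90aa1 was not called. Its levels were 10.74, 10.68, 10.61 and 10.75 in the controls and 11.08, 10.94, 10.98 and 11.09 in the starved arrays, without overlap. The fold change was 0.33 ± 0.07 (95% interval 0.17 to 0.48), a level 1.25-fold that of controls (adjusted p = 0.0140). The direction depends on scaling between arrays: without it the value was -0.050 (adjusted p = 0.862), where the median of all genes was -0.34. With each array centred on its median the value was 0.27 (adjusted p = 0.138), and with centring on the 75th percentile 0.31 (adjusted p = 0.0506). The call was also lost when limma was run without an intensity trend (0.33, adjusted p = 0.0522). Ahsa1 was called in 15 of 19 alternatives.

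Stip1, the adaptor between HSP70 and HSP90, was at 9.99, 9.95, 10.07 and 10.07 in the controls and 10.40, 10.31, 10.13 and 10.21 in the starved arrays. The groups did not overlap, and the fold change of 0.24 ± 0.08 had an adjusted p of 0.107. Bag3, a nucleotide exchange factor that works with Hspb8 in muscle protein turnover, was at 9.37, 9.61, 9.48 and 9.55 against 9.50, 9.40, 9.55 and 9.52. Its fold change was -0.01 ± 0.09, with a 95% interval of -0.21 to 0.19 (adjusted p = 0.967). Hspbp1, an HSP70 nucleotide exchange factor, had a value of 0.18 ± 0.10 (adjusted p = 0.320).

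Of the 7 small heat shock genes tested, Hspb8 rose and 6 were not called, with a median of -0.02. Hspb8 was at 11.88, 11.13, 11.25 and 11.35 in the controls and 11.87, 11.96, 11.85 and 11.90 in the starved arrays. Control A reached the starved level, and controls B, C and D lay below it. The fold change was 0.50 ± 0.13 (95% interval 0.20 to 0.79, adjusted p = 0.0390). A second probe set read 10.64, 7.84, 10.63 and 10.68 against 11.27, 11.41, 11.07 and 11.45. Here all starved arrays were above all controls, and control B lay far below the rest. Its fold change was 1.35 ± 0.53 with all arrays (adjusted p = 0.147) and 0.65 ± 0.09 without control B (adjusted p = 0.00129). Another probe set, with the suffix _x_at, gave 8.80, 9.68, 9.58 and 8.71 against 9.86, 9.87, 9.80 and 9.41. It overlapped through starved H and gave 0.54 ± 0.22 (adjusted p = 0.162).

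The Hspb8 call from the brightest probe set was lost in 10 of 19 alternatives. Among them were leaving out control B, C or D or any of starved E to H, where the value stayed between 0.40 and 0.51 and the adjusted p between 0.0724 and 0.109. Without control A the value was 0.66 and the adjusted p 0.000448. The mean of the 3 probe sets gave 0.80 (adjusted p = 0.0120). That mean includes the 1.35 of the second probe set, which carries the low control B. Without control B the 3 probe sets gave 0.40, 0.65 and 0.70.

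The abundant small heat shock proteins of muscle were not called. Hspb1 was at 13.14, 13.10, 13.10 and 13.18 in the controls and 13.20, 13.22, 13.12 and 13.15 in the starved arrays. The groups overlapped (0.04 ± 0.04, 95% interval -0.06 to 0.14, adjusted p = 0.635). Cryab, the alpha-B crystallin that binds desmin and titin, was at 12.77, 12.83, 12.75 and 12.80 against 12.62, 12.72, 12.62 and 12.66. Every starved array was below every control array, by a small step: -0.13 ± 0.05 (adjusted p = 0.120). Another Cryab probe set gave 0.02 (adjusted p = 0.873). The direction depends on scaling: the value of the first probe set was -0.016 with centring on the median and 0.023 with centring on the 75th percentile (adjusted p = 0.959 and 0.924). Hspb1 stood at 0.18 and 0.22 under the same settings and at -0.14 without scaling, with no call.

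Hspb2, a muscle small heat shock protein whose gene lies within the annotated span of Cryab on chromosome 9 (50751072 to 50752354, GRCm38.p6), was at 11.22, 11.36, 11.17 and 11.23 in the controls. Its starved levels were 11.02, 11.11, 10.97 and 10.95, all below the controls. The fold change was -0.23 ± 0.07 (95% interval -0.39 to -0.08, adjusted p = 0.0617). It was called lower without scaling between arrays (-0.60, adjusted p = 0.0200), where the median of all genes was -0.34. Relative to the median of all genes, Hspb2 stood at -0.26 there and at -0.25 in the main fit. It was also called when genes were taken as the mean of their probe sets (adjusted p = 0.0465), with its value unchanged at -0.23. Hspb7, Hspb3 and Hspb11, the last a ciliary transport protein by function, gave 0.10, -0.02 and -0.04. A second Hspb7 probe set gave 0.50 ± 0.22 (adjusted p = 0.186).

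None of the 27 DnaJ genes tested was called by limma, with 22 above 0, a median of 0.12 and a range of -0.34 to 0.34. At an unadjusted p below 0.05 there were 7 of them, or 25.9%, near the 24.3% of all genes. All 7 DnaJB genes, which include the classical HSP70 partners, were above 0 on their brightest probe set, from 0.02 to 0.29, and none was called. Other probe sets of Dnajb4 (-0.14) and Dnajb5 (-0.21 and -0.19) lay below 0. With centring on the median or the 75th percentile 6 of the 7 genes were above 0, and without scaling between arrays 0 were, with 6 above the median of all genes. Dnajb1, the HSP40 induced by heat, was at 9.02, 8.94, 9.03 and 9.07 in the controls and 9.30, 9.17, 9.28 and 9.30 in the starved arrays. The groups did not overlap, with a fold change of 0.25 ± 0.09 (95% interval 0.05 to 0.44, adjusted p = 0.110). A second Dnajb1 probe set read 8.75, 8.49, 8.78 and 8.91 against 8.85, 9.03, 8.44 and 8.67, which overlapped (0.02, adjusted p = 0.963). Dnajb12, Dnajb4 and Dnajb8 gave 0.29, 0.15 and 0.12, with no call.

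The 3 DnaJA genes, which keep the full domain layout of the bacterial DnaJ protein, did not share a direction. Dnaja1 was at 9.87, 10.33, 10.29 and 9.83 in the controls and 9.57, 9.52, 10.02 and 10.03 in the starved arrays. These overlapped, with a fold change of -0.30 ± 0.16 (adjusted p = 0.299), and a second probe set gave 0.08 (adjusted p = 0.719). Without scaling between arrays Dnaja1 was called lower (-0.69, adjusted p = 0.0377), where the median of all genes was -0.34. Dnaja2 was at 9.88, 9.94, 10.06 and 9.99 against 10.25, 10.19, 10.09 and 10.48, with no overlap (0.29 ± 0.10, adjusted p = 0.0966). Dnaja4, known from striated muscle, was at 8.14, 8.47, 8.40 and 8.37 against 8.71, 8.56, 8.68 and 8.51. These groups did not overlap either (0.27 ± 0.11, adjusted p = 0.171). Its other probe sets gave 0.23 and 0.59, and the mean of all 3 was called higher (0.36, adjusted p = 0.0421). The probe set at 0.59 read 7.13 in control B and 7.73 to 8.10 in the other controls. Without control B that probe set gave 0.41 (adjusted p = 0.114).

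The DnaJC genes hold proteins with a J domain and otherwise varied functions. Of 17 tested, 13 were above 0, with a median of 0.08. The highest was Dnajc4 at 0.34 ± 0.16 (adjusted p = 0.247), followed by Dnajc18 at 0.29 and Dnajc7, a partner of both HSP70 and HSP90, at 0.25 ± 0.11 (adjusted p = 0.185). Below 0 were Dnajc5, the cysteine string protein of secretory vesicles, at -0.16, Dnajc15 at -0.19, the endosomal Dnajc13 at -0.24 and Dnajc12 at -0.34 ± 0.21 (adjusted p = 0.370). Dnajc15, a mitochondrial inner membrane protein, was at 10.16, 10.33, 10.22 and 10.15 in the controls and 10.02, 9.97, 10.07 and 10.04 in the starved arrays. It was the single DnaJ gene with every starved array below every control array (-0.19 ± 0.08, adjusted p = 0.168). Dnajc12 passed the brightness threshold only through its control arrays, with a mean of 6.85 against 6.50 in the starved arrays. With centring on the median 11 of the 17 genes were above 0, and with the 75th percentile 13. Without scaling between arrays 0 were, with 12 above the median of all genes. Dimmer probe sets of Dnajc2 (-0.30), Dnajc11 (-0.22), Dnajc14 (-0.32 and -0.09) and Dnajc27 (-0.42) lay below 0. Those of Dnajc18 and Dnajc28 lay above it, and those of Dnajc5 ran from -0.26 to 0.29.

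Probe sets of 1 gene often differed as much as the groups did. Of the 24 members with 2 or more tested probe sets, 14 had all of them on the same side of 0 and 10 had them on both sides. The median distance between a gene's highest and lowest fold change was 0.29. Hsph1 lay at one end, whose values were nearly equal, and Hspb8 at the other, where the second probe set carries the low control B. Dnajc5 had 5 tested probe sets from -0.26 to 0.29, none called.

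**Figure D3:**
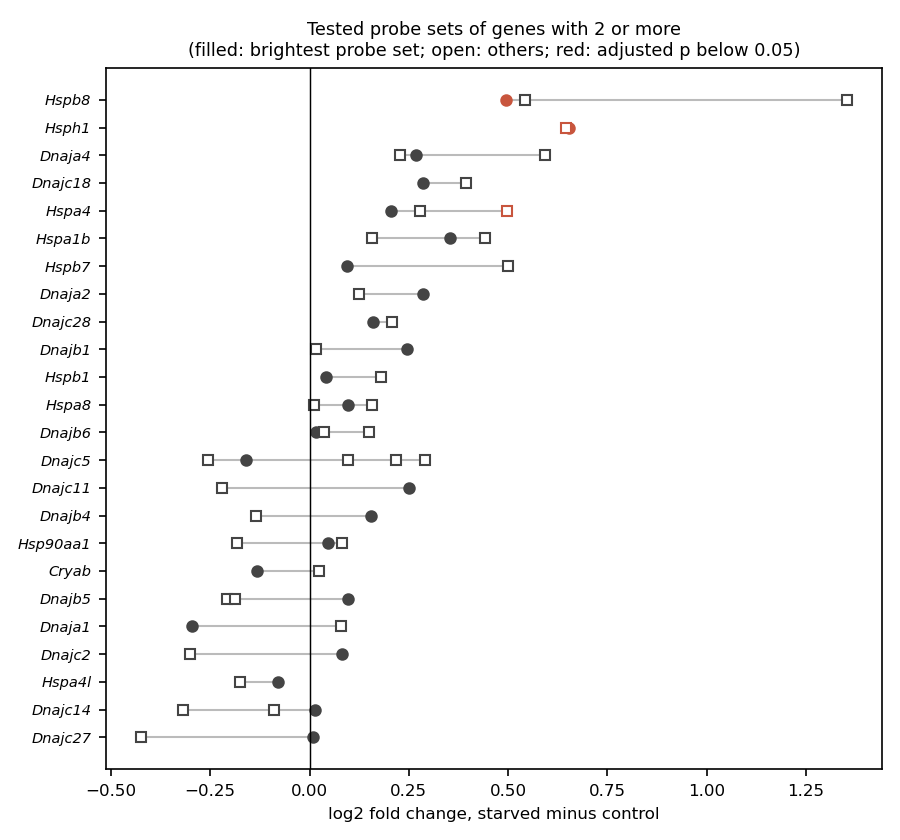
Log2 fold change, starved minus control (x axis), of every tested probe set for the 24 member genes with 2 or more. Filled circles are the brightest probe set and open squares the others; red marks an adjusted p below 0.05, which both Hsph1 probe sets, 1 of Hspb8 and 1 of Hspa4 reached.

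Hsf2, a heat shock factor, was too dim to be tested with the rest. Its log2 level was 5.00, 4.64, 4.72 and 4.33 in the controls and 3.85, 3.76, 4.15 and 4.00 in the starved arrays, with every starved array below the controls. When no brightness threshold was applied the value was -0.73 ± 0.18 (adjusted p = 0.0382). At this brightness the offset and the scaling set much of a log2 value. The other 8 untested genes were Dnajb3, Dnajb7, Dnajb13, Dnajc5b, Dnajc17, Dnajc24, Hspa12b and Hspa1l. Without the threshold none of them was called, with fold changes from -0.15 to 0.35.

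Across the arrays, the members' median level relative to each gene's own mean was -0.08, -0.07, -0.05 and -0.03 in controls A to D. In starved E to H it was 0.00, 0.03, 0.13 and 0.02, highest in starved G. Over all genes the same medians stayed between -0.01 and 0.05. A fold change above 0.5 in size was found for 2 members (4.26%), Hspa1a and Hsph1, and for 10.6% of all genes. The members' median was 0.058 without control A and 0.064 without control B, where the median of all genes was 0.013 and 0.025. Without starved G it was 0.070, with 30 of 47 members above 0. Without scaling between arrays it was -0.23, where the median of all genes was -0.34, and 3 of 47 members were above 0.

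**Figure D4:**
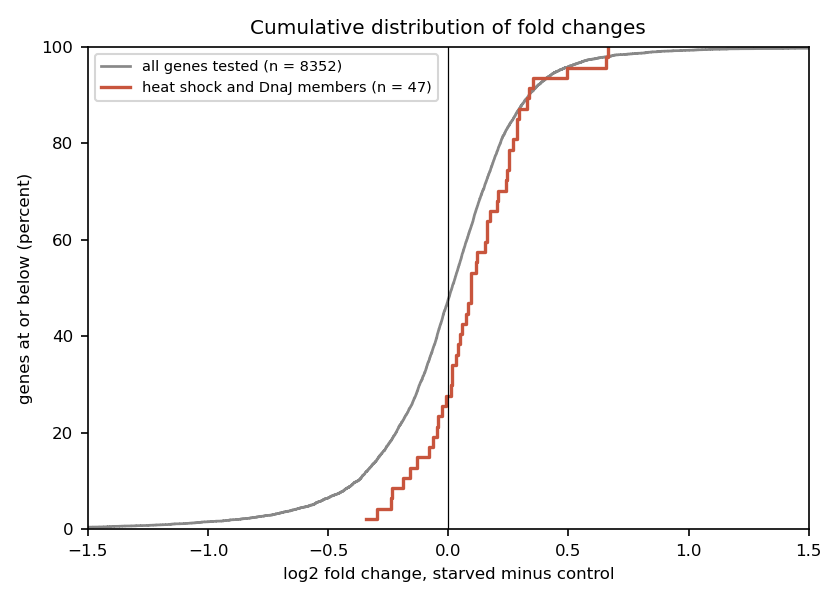
Percent of genes (y axis) at or below a given log2 fold change, starved minus control (x axis), for the 47 tested members (red) and all 8352 genes tested (grey). The red median is 0.10 and the grey 0.01, and the red curve ends at 0.66.

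Other genes of the cytosolic chaperone system came from lists of co-chaperones, of chaperonin and prefoldin subunits, and of Hsf4 and heat shock factor regulators. Of 43 tested, 4 were called higher and 2 lower, with a median of 0.08. Of 26 co-chaperones outside the name rule, 2 rose and 2 fell. Fkbp4, an immunophilin of HSP90 complexes, rose by 0.52 ± 0.12 (adjusted p = 0.0163), from 8.94, 8.58, 8.55 and 8.64 to 9.16, 9.27, 9.31 and 9.04. Its relative Fkbp5, known as a glucocorticoid target, fell by 0.48 ± 0.11 (adjusted p = 0.0163), from 8.82, 8.74, 8.77 and 8.67 to 8.43, 8.16, 8.14 and 8.37. The groups did not overlap for either gene. Stub1, the ubiquitin ligase that acts on HSP70 clients, rose by 0.35 ± 0.08 (adjusted p = 0.0194), and Bag1, an HSP70 nucleotide exchange factor, fell by 0.27 ± 0.06 (adjusted p = 0.0165).

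Of the 8 TRiC chaperonin subunits tested, which fold actin and tubulin, Cct2 rose (0.30 ± 0.06, adjusted p = 0.0139), 7 were not called and the median was 0.10. Of 6 prefoldin subunits, which feed TRiC, Pfdn6 rose (0.50 ± 0.13, adjusted p = 0.0258). None of the 3 genes listed as heat shock factor regulators was called by limma, and 2, Hsf4 and Hsbp1, had an unadjusted p below 0.05. Hsf4, itself a heat shock factor, was at -0.62 (adjusted p = 0.179). It passed the brightness threshold of 6.61 only through its control arrays, with a mean of 7.11 against 6.50 in the starved arrays. Hsbp1, which binds heat shock factor trimers, was at -0.24 (adjusted p = 0.0670). Of the 6 calls in these lists, those of Fkbp4 and Fkbp5 held with centring on the median and on the 75th percentile. Those of Stub1, Cct2, Pfdn6 and Bag1 were lost under both. Without scaling between arrays 0 were higher and 4 lower, Fkbp5 and Bag1 among them, and Stub1 (-0.022) and Cct2 (-0.058) turned to values below 0. Leaving out 1 array moved the counts of these lists between 2 and 6 higher and between 0 and 2 lower. There were 2 higher without control C, starved F or starved G and 6 without control B. In the lower direction 1 was left without control A or control C and 0 without starved F.

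Among the organelle chaperones that the rule left out, 5 of 10 tested rose, where 4.25% of all genes were called higher. The median of the 10 was 0.40. Those that rose are named here. They were Hspe1, Hspa9, Dnaja3 (0.58 ± 0.12, adjusted p = 0.0104), Hspd1 (0.57 ± 0.07, adjusted p = 0.000289) and Hspa5 (0.37 ± 0.08, adjusted p = 0.00973). No test of the difference between these lists was run.

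**Figure D5:**
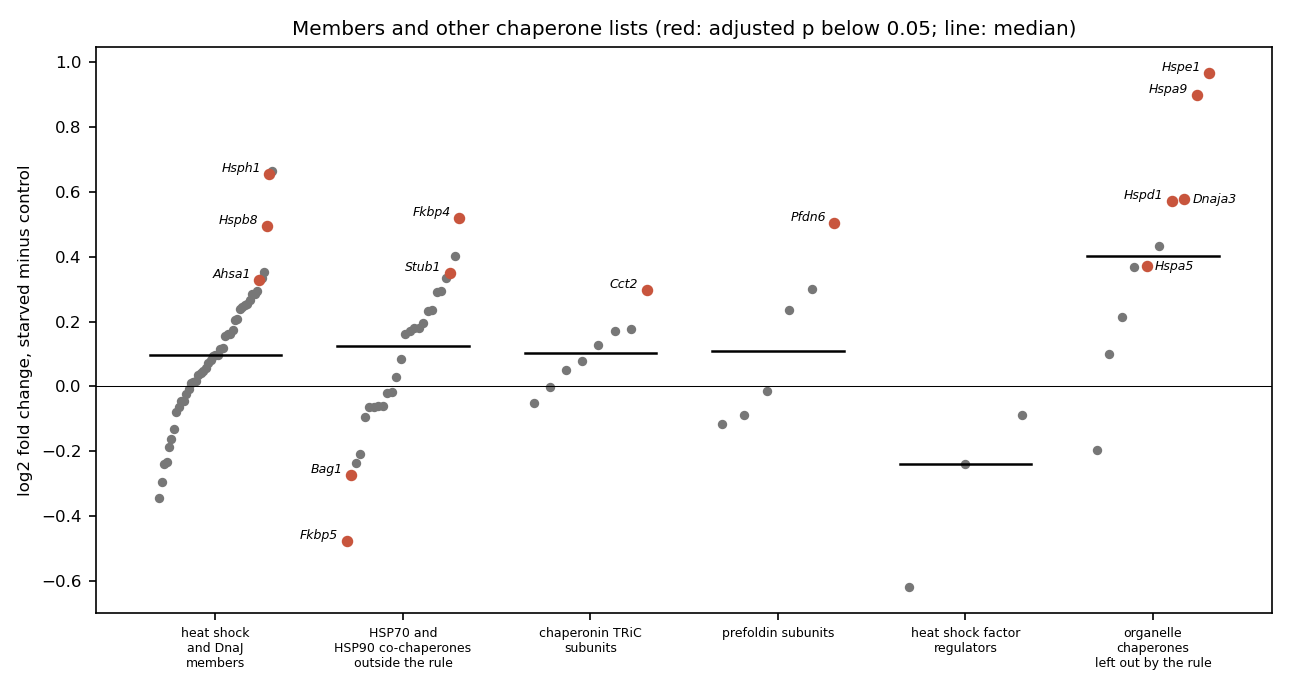
Log2 fold change, starved minus control (y axis), of each tested gene in the member list and in 5 other chaperone lists (x axis), ordered within a list; red and named: adjusted p below 0.05, horizontal line: median. The members' median is 0.10 with 3 of 47 called, and that of the organelle chaperones left out is 0.40 with 5 of 10 called.

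Some whole-array measures lay beside these results. The trimmed mean of the deposited intensities ran from 317 to 455 in the controls and from 243 to 366 in the starved arrays, a log2 difference of -0.38 (two-sided exact permutation test, p = 0.0857, 4 arrays per group). The ratio of the 3' to the 5' control probe sets of Gapdh, a sign of RNA integrity, was 1.40 on the log2 scale in control B and between -0.23 and -0.04 in the other 7 arrays. The same ratio for actin did not set control B apart. It was 0.32 there, 0.29 in control D and as low as 0.02 in starved H. Control B was the lowest of the controls in 30 and the highest in 24 of the 83 member probe sets, and more than 1 log2 unit below the other 3 in 2, of Hspb8 and Dnajb5. Without control B, 9 member probe sets were called in place of 5, with 4 in common, 8 higher and 1 lower, which is 10.8% of the member probe sets where 10.6% of all probe sets were called in that fit. The 5 added ones were of Hspa1a, Hspa1b, Hspb8 (2) and Dnajb5, the last falling by 0.84 ± 0.24 (adjusted p = 0.0458), and the brightest probe set of Hspb8 was no longer called. The genes called without control B were Hsph1, Ahsa1 and Hspa1a, the last with the limit given above that only its starved arrays took it past the brightness threshold.

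The myotube markers were bright on every array, and all 15 were tested, with 1 called higher and 2 lower. Sums given here are of the scaled values with the offset, taken back to a linear scale. For the myotube markers they were 118704 to 122158 in the controls and 111195 to 117232 in the starved arrays. The scaling gives all arrays a common distribution, so the sums do not show the deposited intensities. Of the fibroblast markers 3 of 7 fell (Col1a1, Pdgfrb and Postn), where 6.94% of all genes were called lower. The others were not called: Pdgfra (0.56, adjusted p = 0.0777 in limma) and Thy1 (0.20) lay above 0, Col1a2 (-0.32) and Col3a1 (-0.08) below it. The fibroblast sums were 11420 to 12452 in the controls and 7902 to 9327 in the starved arrays. Bright genes weigh most in such sums, Col3a1 and Col1a2 here and Acta2 for smooth muscle. Of the smooth muscle markers 2 of the 3 tested fell, with sums of 12031 to 12606 against 8670 to 9528. The defining smooth muscle genes Myh11 and Cnn1 were too dim to be tested, as were Ptprc and Hba-a1 of blood cells and Adipoq and Cidec of adipocytes. Cd68 of blood cells and Fabp4 of adipocytes were bright enough and were not called (0.33 and 0.13, adjusted p = 0.257 and 0.759 in limma). Of 3 myoblast markers tested, 1 was called higher. The part of these differences in the heat shock values was not tested.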

How the data were processed

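RNA of 4 control and 4 starved C2C12 samples was hybridised to Affymetrix mouse arrays, 1 array per sample, and all 8 columns were used. The values are the intensities deposited by the authors, 1 per probe set on a linear scale. The steps from scan to intensity are not given in the sources used here, and no detection calls were used. Values below 0 were set to 0, an offset of 10.9 (the 10th percentile) was added, and log2 values were quantile normalized, which assumes equal distributions in both groups. Fold changes understate those of dim genes. Leaving out 64 control probe sets, the 13575 probe sets whose mean exceeded the 40th percentile were tested with limma 3.58.1 in R 4.3.3 (lmFit, eBayes with an intensity trend). The procedure was tested on simulated data. Tables and figures were made with Python 3.11.15 and matplotlib 3.10.9.

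Gene names came from the platform annotation; all 105 member symbols matched RefSeq. Another 2 probe sets with several symbols were left out. The members and lists were chosen with earlier results of these data known. Values per array are given for called genes, for a panel of well-known members and for members whose groups did not overlap, the last chosen after the values were seen. Hspa4, whose dimmer probe set was called, was also chosen after the values were seen. From the other lists up to 3 called genes per direction were named, and Hspd1 and Hspa5 besides. Alternatives were other scalings, offsets, brightness thresholds and variance settings, averaging the probe sets of a gene and leaving out each array. The number of arrays limits the precision.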

Additional observations from a re-analysis of the deposited data

Results flagged for a closer look

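In 7 of 62 groups of 4 arrays examined, the highest or lowest array stood far from the other 3, where chance gives about 1 in 20. Control B accounted for 3 of them. Its Gapdh 3' to 5' log2 ratio was 1.40 where the other controls lay between -0.22 and -0.12, its level of a second Hspb8 probe set was 7.84 against 10.63 to 10.68, and its level of an Hsp90aa1 probe set was 9.91 against 10.33 to 10.38. Starved H accounted for 3 more, with 10.0 for a second Dnaja1 probe set (others 9.62 to 9.65), 9.18 for an Hspa4 probe set (9.54 to 9.60) and 9.41 for the _x_at probe set of Hspb8 (9.80 to 9.87). Starved F was low for Dnajb1, at 9.17 against 9.28 to 9.30.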

How the results depend on the processing

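The 47 member genes were refitted under 19 alternatives, 8 of which left out 1 array. Of 888 values of single genes, 790 kept their direction and side of the threshold, 14 lost a call, 9 gained one and 74 were uncalled values that changed sign, 30 of them without scaling. One called value turned: Ahsa1 without scaling between arrays, at -0.050. Without scaling, where the median of all probe sets moved to -0.33, 0 members were higher and 2 lower (Dnaja1 and Hspb2), with a median of -0.23, and the other lists had 0 higher and 4 lower. Relative to all genes, 33 of 47 members lay above the median without scaling. With no brightness threshold 1 member was lower (Hsf2). When the probe sets of a gene were averaged, 5 members were higher and 1 lower, and 1 gene of the other lists was lower. Centring on the median, centring on the 75th percentile and no intensity trend each left 1 higher and 1 lower in the other lists. Leaving out 1 array gave 2 to 6 higher and 0 to 2 lower there, and 2 to 3 higher and 0 lower among the members. The members' median then lay between 0.06 and 0.13. Leaving out control B was also run on every member probe set, which was added after the data were seen: 9 were called (10.8%), where 10.6% of all probe sets were. No paired analysis was possible because the replicate letters differ between the groups.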
